A study of Mus musculus with 13 samples.

Results

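Perivascular adipose tissue of mice given splenocytes from diabetic donors (TS-R, 4 libraries) was set against the same tissue of mice given splenocytes from wild-type donors (WTS-R, 3 libraries). These are 7 of the 13 bulk RNA sequencing libraries of the series, picked by their titles, and the comparison takes in the 17270 of 34013 genes that passed a filter on low counts. The labels call the diabetic donors T2DM mice, and the comparison addresses what their immune cells do to the fat and its immune content. All 7 libraries carry the genotype label WT and the strain background C57BL/6, and no label says whether that genotype is the donor's or the recipient's. The sources used here do not give how diabetes was brought about, the dose of cells, the interval after transfer, the time of day, the age or the sex. With no label tying a library to its own animal, every p-value speaks for the variation among these libraries, part of which may be technical.

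Perivascular fat wraps the vessel wall and, around the mouse aorta, resembles brown fat: its adipocytes burn lipid in mitochondria uncoupled by UCP1. It also holds fibroblasts that lay down collagen and elastin, nerve fibres, and resident macrophages and lymphocytes, and adipose depots often enclose small lymph nodes and lymphoid clusters. A suspension of splenocytes consists mainly of B and T lymphocytes, with fewer dendritic cells, macrophages and neutrophils. NLRP3, PYCARD and caspase-1 form an inflammasome that matures interleukin-1 beta and interleukin-18.

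The libraries held 29800052, 14783422, 29325293 and 15567389 counts in TS-R 1 to 4, against 16645120, 17707840 and 15867697 counts in WTS-R 1 to 3, so that no WTS-R library matched the depth of TS-R 1 and 3. Levels are given as CPM, counts scaled to the TMM-adjusted library size, and 3 counts, the limit that a count of 0 allows, were 0.0847 to 0.183 CPM in TS-R and 0.189 to 0.193 CPM in WTS-R (counting error only). Adipocyte, brown adipocyte and endothelial markers were present in all 7 libraries, although the brown fat elongase gene Elovl3 was only at 0.0609 to 1.04 CPM in TS-R and 0.386 to 1.95 CPM in WTS-R, and the smooth muscle gene Tagln at 0.677 to 1.28 CPM and 0.321 to 1.22 CPM. TS-R 3 stood apart on the first principal component, at 138.5, where the other TS-R libraries were at -31.9 to 47.7 and WTS-R at -56.7 to -54.3. TS-R 3 was rich in lymphoid transcripts and held Xist with 1 Y-linked count, whereas the other 6 libraries were Y-linked, and TS-R 1 held the most skeletal muscle RNA: the fast myosin gene Myh4 was at 2733, 23.7, 0.198 and 67.7 CPM in TS-R 1 to 4, against 0, 0.126 and 12.3 CPM in WTS-R 1 to 3. Results are therefore also given without TS-R 1 and 3, which leaves libraries of similar depth.

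By edgeR no gene passed an FDR of 0.05 (0 higher and 0 lower in TS-R, 0.0% of 17270). At an unadjusted p under 0.05 there were 2622 higher and 1221 lower genes, and 394 higher and 72 lower genes shared the lowest FDR, 0.0624. DESeq2 called 1566 genes higher (9.07%) and 340 lower (1.97%), and limma with voomWithQualityWeights 2332 and 1484, with 1469 and 312 called by both. Without TS-R 1 and 3 edgeR called 627 genes higher (3.56% of 17629) and 67 lower (0.38%). Without TS-R 1 alone it called 1543 and 363, and 984 and 254 without TS-R 4. Since the 13-library edgeR test passed no gene, genes are described by whether the groups overlapped. All 4 TS-R libraries lay above all 3 WTS-R libraries for 1548 genes (8.96%) and below them for 1408 (8.15%), and these shares are the background for every list. Without TS-R 3, which leaves the 6 Y-linked libraries, the counts were 1823 (10.6%) and 1636 (9.47%), and with RLE scaling in place of TMM 1599 (9.26%) and 1337 (7.74%). Genes in the first set are called higher without overlap, and those in the second lower without overlap. Where 5 or fewer members of a list make such a count they are named, after their values were seen if the naming rule does not give them. Each fold change is the fitted log2 value from edgeR, TS-R over WTS-R, and their median over all tested genes was 0.03.

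**Figure D1:**
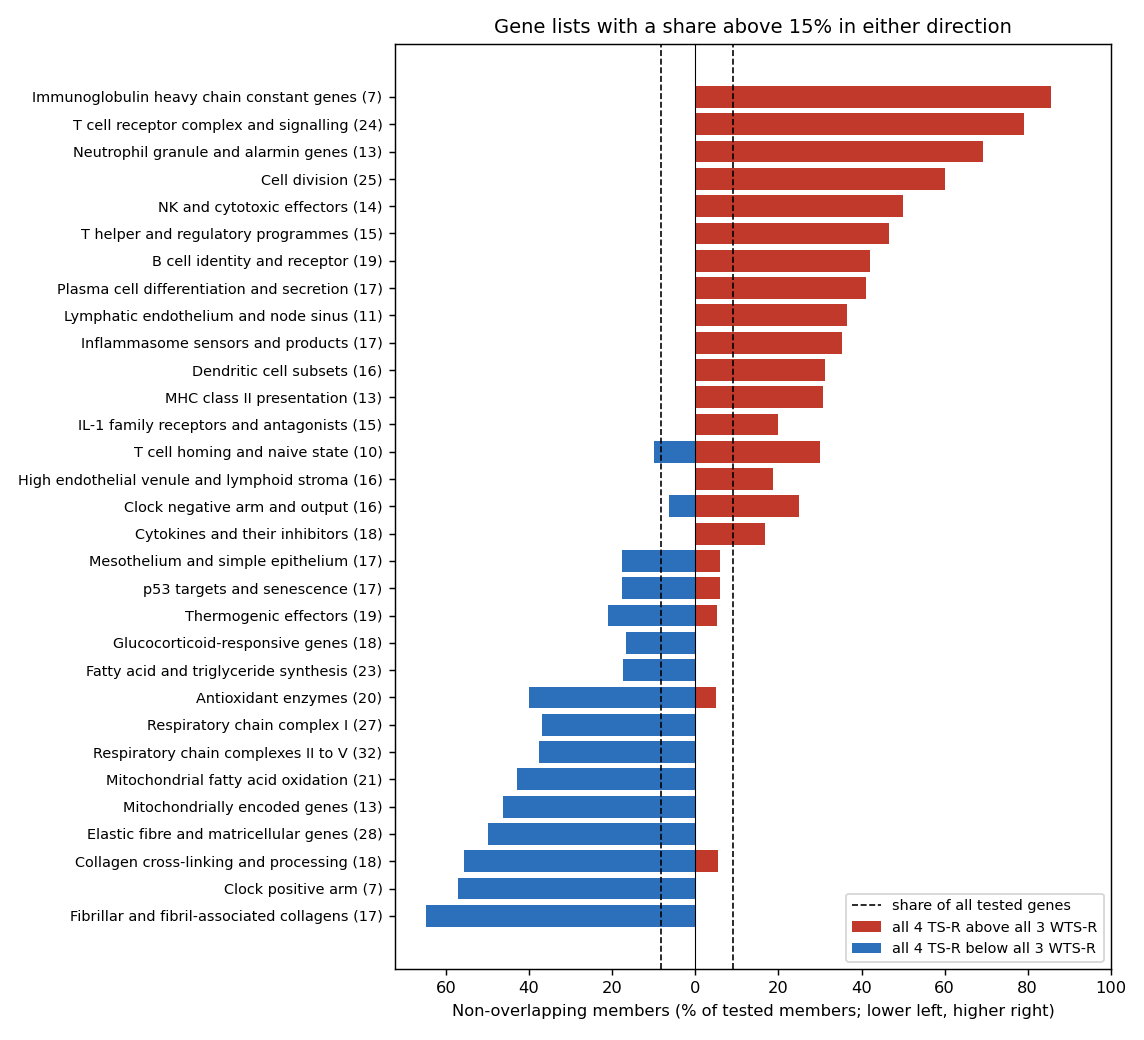
Share of tested members (percent, x axis) of each gene list (y axis, number of tested members in brackets) whose 4 TS-R libraries all lay above (red, to the right) or all below (blue, to the left) the 3 WTS-R libraries, for lists with a share over 15% and at least 7 members. The dashed lines are the shares of all tested genes, 8.96% and 8.15%. Immunoglobulin heavy chain genes reach 85.7% on the right and fibrillar collagens 64.7% on the left.

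Most T cell receptor genes were higher in TS-R. Of the genes of the antigen receptor complex and its signalling, 19 of 24 were higher without overlap (79.2%, against 8.96% of all genes), with a median log2 fold change of 4.89. The CD3 epsilon chain gene Cd3e was at 0.910, 16.3, 38.8 and 4.88 CPM in TS-R 1 to 4, against 0.321, 0.629 and 0.322 CPM in WTS-R 1 to 3 (log2 fold change 5.14, SE 1.16, edgeR FDR 0.0624, DESeq2 adjusted p 3.7e-06). Zap70, the kinase that acts first downstream of the receptor, was at 1.85, 18.1, 43.9 and 6.28 CPM in TS-R 1 to 4, against 0.449, 1.01 and 0.514 CPM in WTS-R 1 to 3 (log2 fold change 4.73, SE 0.98, edgeR FDR 0.0624). For both genes the groups did not overlap, TS-R 3 was the highest library, and TS-R 1 lay less than 1 CPM above the highest WTS-R library. In bulk tissue more cells of a type and more RNA per cell cannot be told apart, here or in any list below. Genes of naive T cell homing separated less well, with 3 of 10 higher without overlap (among them Il7r and Satb1) and 1, the egress receptor gene S1pr1, lower. The homing receptor gene Ccr7 was at 0.654, 33.4, 54.9 and 5.67 CPM in TS-R 1 to 4, against 0.770, 0.943 and 0.9004 CPM in WTS-R 1 to 3 (log2 fold change 4.75, SE 1.18, edgeR FDR 0.0624), so TS-R 1 lay below all 3 WTS-R libraries. The naive T cell transcription factor gene Tcf7 was at 1.17, 55.7, 142 and 12.8 CPM in TS-R 1 to 4, against 0.641, 1.76 and 0.579 CPM in WTS-R 1 to 3, with TS-R 1 inside the WTS-R range. Foxp3, which defines regulatory T cells, was at 0.171, 5.85, 8.95 and 1.10 CPM in TS-R 1 to 4, against 0.257, 0.315 and 0.129 CPM in WTS-R 1 to 3 (log2 fold change 4.07, SE 1.13, edgeR FDR 0.0726): TS-R 1 was again inside the WTS-R range, and TS-R 2 to 4 were above it.

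Helper and cytotoxic genes followed the same libraries. In the T helper and regulatory list 7 of 15 genes were higher without overlap, and in the NK and cytotoxic list 7 of 14. Their medians were 2.97 and 2.88, and 1.91 and 1.93 without TS-R 3. Nkg7, a granule membrane protein of NK and cytotoxic T cells, was at 3.72, 12.4, 23.1 and 5.43 CPM in TS-R 1 to 4, against 1.16, 0.818 and 2.51 CPM in WTS-R 1 to 3 (log2 fold change 2.90, SE 0.72, edgeR FDR 0.0624). Gzma, granzyme A, was at 2.36, 3.35, 2.46 and 2.80 CPM in TS-R 1 to 4, against 1.92, 1.13 and 2.06 CPM in WTS-R 1 to 3, a smaller difference (log2 fold change 0.68, SE 0.43, edgeR FDR 0.368) in which the highest library was TS-R 2. Without TS-R 1 the non-overlapping genes were 12 of 15 and 13 of 14, against 17.2% of all genes in that setting.

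The list of B cell identity and receptor genes had the largest median of the lymphocyte lists outside the immunoglobulins. The median of the B cell list was 5.70, and 8 of 19 genes were higher without overlap. Without TS-R 1 the count was 17. Ms4a1, which encodes CD20, was at 2.56, 52.6, 339.7 and 19.9 CPM in TS-R 1 to 4, against 1.48, 1.32 and 1.09 CPM in WTS-R 1 to 3 (log2 fold change 6.32, SE 1.49, edgeR FDR 0.0624). TS-R 1 was only just above the WTS-R range, while TS-R 3 exceeded every other library several fold. Complement receptor gene Cr2, of mature B cells and follicular dendritic cells, was at 0.398, 28.1, 189 and 10.8 CPM in TS-R 1 to 4, against 0, 0.189 and 0.514 CPM in WTS-R 1 to 3, so TS-R 1 overlapped with WTS-R 3. Of the germinal centre genes 1 of 9, Mybl1, was higher without overlap, or 6 without TS-R 1. The median was 4.12 with all libraries and 0.76 without TS-R 3. Without TS-R 1 and 3 it was 2.44, and edgeR called 5 of 9 genes higher.

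Antibody-secreting cell genes separated the groups without exception among the genes named here, apart from Mzb1. In the immunoglobulin heavy chain list 6 of 7 genes were higher without overlap. Igha, the IgA heavy chain gene, was at 415, 1034, 1900 and 1796 CPM in TS-R 1 to 4, against 0.706, 3.52 and 8.62 CPM in WTS-R 1 to 3 (log2 fold change 8.23, SE 2.19, edgeR FDR 0.0686, DESeq2 adjusted p 1.1e-05). Its lowest TS-R library, TS-R 1, was thus far above the highest WTS-R library. The IgM heavy chain gene Ighm was at 155, 589.9, 1036 and 186 CPM in TS-R 1 to 4, against 29.2, 18.6 and 33.2 CPM in WTS-R 1 to 3 (log2 fold change 4.18, SE 0.92, edgeR FDR 0.0624). Ighg1, the IgG1 heavy chain gene, was at 12.1, 142, 3534 and 126 CPM in TS-R 1 to 4, against 0, 0 and 0.129 CPM in WTS-R 1 to 3, and the WTS-R libraries lay at or under the 3-count limit, so no fold is given. Reads of related heavy chain genes can be shared, which makes single genes of this family less certain. Genes picked by the first letters of immunoglobulin chain symbols together took 0.183, 0.727, 5.47 and 0.764% of counts in TS-R 1 to 4, against 0.00604, 0.00475 and 0.00775% in WTS-R 1 to 3. A match by first letters can take in other genes, so these shares are approximate. Jchain, which links IgA and IgM units, was at 109.6, 459, 1815 and 564 CPM in TS-R 1 to 4, against 2.69, 1.57 and 2.70 CPM in WTS-R 1 to 3 (log2 fold change 8.31, SE 1.69, edgeR FDR 0.0624). Prdm1, the transcription factor of plasma cell differentiation, was at 3.92, 4.93, 10.2 and 1.83 CPM in TS-R 1 to 4, against 0.770, 1.01 and 0.9004 CPM in WTS-R 1 to 3 (log2 fold change 2.55, SE 0.53, edgeR FDR 0.0624). The chaperone gene Mzb1 was at 0.0853, 4.20, 19.3 and 2.13 CPM in TS-R 1 to 4, against 0.128, 0.0629 and 0.0643 CPM in WTS-R 1 to 3, where TS-R 1 was under its 3-count limit. The plasma cell list as a whole had 7 of 17 genes higher without overlap and a median of 1.25.

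Over the 115 tested lymphocyte genes 58 were higher without overlap (50.4%) and 1 was lower (0.87%). TS-R 3 was the highest TS-R library for 106 of the 115 and TS-R 1 the lowest for 103. Without TS-R 1 and 3 edgeR called 22 of 24 T cell receptor genes, 17 of 19 B cell genes and 6 of 17 plasma cell genes higher (all genes, 3.56%). Cd3e then had a log2 fold change of 4.59 (edgeR FDR 0.0111) and Ms4a1 of 4.78 (edgeR FDR 0.0111). Igha kept a log2 fold change of 8.36 but did not pass there (edgeR FDR 0.0813).

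**Figure D2:**
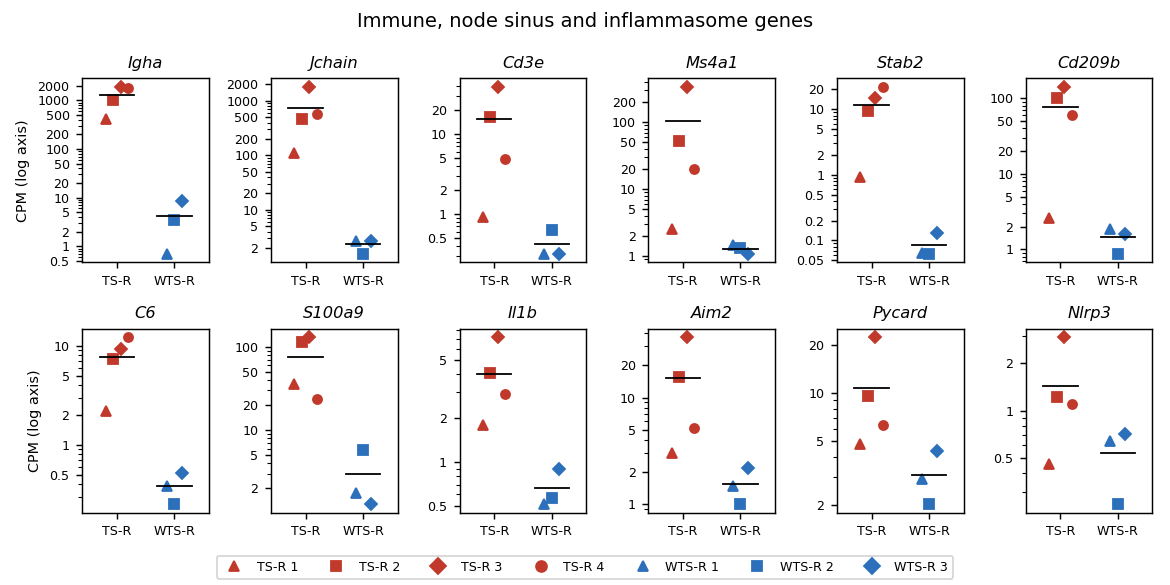
Level of 12 immune, node sinus and inflammasome genes in each library (CPM, log y axis), TS-R in red and WTS-R in blue, with the marker shape giving the replicate and the black line the group mean (n = 4 and 3). Stab2 and C6 are highest in TS-R 4, at 21.9 and 12.1 CPM, whereas Cd3e and Ms4a1 are highest in TS-R 3. Nlrp3 overlaps between the groups, with TS-R 1 at 0.455 CPM inside the WTS-R range.

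Lymph node transcripts moved with the lymphocyte genes. Glycam1, a secreted mucin of high endothelial venules, the vessels through which lymphocytes enter nodes, was at 0.0284, 66.9, 965 and 8.11 CPM in TS-R 1 to 4, against 0.0641, 0.0629 and 0 CPM in WTS-R 1 to 3. Madcam1, an addressin for gut-homing lymphocytes, was at 0.199, 2.19, 11.04 and 1.16 CPM in TS-R 1 to 4, against 0, 0.0629 and 0.0643 CPM in WTS-R 1 to 3. Both were at or under the 3-count limit in all WTS-R libraries, and Glycam1 was under it in TS-R 1 as well. The chemokine gene Ccl21a, which draws CCR7-bearing cells into the T cell zone, was at 7.76, 236, 305 and 33.6 CPM in TS-R 1 to 4, against 11.4, 12.2 and 44.9 CPM in WTS-R 1 to 3, with overlap. Its partner gene Ccl19 was at 0.313, 23.8, 35.9 and 4.33 CPM in TS-R 1 to 4, against 0.321, 0.692 and 0.772 CPM in WTS-R 1 to 3. The level of the 16 tested venule and lymphoid stroma genes, as a mean of log2(CPM + 0.5), was 1.59, 4.13, 5.28 and 3.19 in TS-R 1 to 4, against 1.73, 1.51 and 1.85 in WTS-R 1 to 3. Of these genes 3 of 16 were higher without overlap (Madcam1, Cxcl13 and Ltb), 13 without TS-R 1, and the median was 2.04, or 0.55 without TS-R 3. The part of lymph node tissue in the lymphocyte differences was not tested. In TS-R 1 the stroma level was in the WTS-R range, but Madcam1, at 0.199 CPM, was above every WTS-R library. Igha was at 415 CPM and Jchain at 109.6 CPM in TS-R 1.

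Stab2 and Cd209b, of the sinuses of lymphoid organs, and the complement gene C6 were among the 12 higher genes with the smallest p. Stab2, a scavenger receptor for hyaluronan on sinus endothelium, was at 0.938, 9.44, 14.7 and 21.9 CPM in TS-R 1 to 4, against 0.0641, 0.0629 and 0.129 CPM in WTS-R 1 to 3 (edgeR FDR 0.0624, DESeq2 adjusted p 1.29e-08). All 3 WTS-R values of Stab2 were under the 3-count limit, with 4 counts over the group, so no fold is given. Cd209b, a C-type lectin of marginal zone and node sinus macrophages, was at 2.64, 100.3, 142 and 60.5 CPM in TS-R 1 to 4, against 1.86, 0.880 and 1.61 CPM in WTS-R 1 to 3 (log2 fold change 5.72, SE 1.002, edgeR FDR 0.0624). All 4 TS-R libraries were above WTS-R for both genes, although TS-R 1 was the lowest by a wide margin. Without TS-R 1 and 3 the edgeR FDR was 0.00153 for Stab2 and 5.93e-05 for Cd209b. C6, which encodes a subunit of the complement membrane attack complex, was at 2.19, 7.37, 9.29 and 12.1 CPM in TS-R 1 to 4, against 0.385, 0.252 and 0.514 CPM in WTS-R 1 to 3 (log2 fold change 4.31, SE 0.64, edgeR FDR 0.0624). Like Stab2 it was highest in TS-R 4, not in TS-R 3. The general lymphatic endothelial genes Lyve1 and Prox1 overlapped. The hyaluronan receptor gene Lyve1 was at 7.08, 18.6, 25.2 and 39.8 CPM in TS-R 1 to 4, against 18.2, 12.3 and 17.6 CPM in WTS-R 1 to 3 (log2 fold change 0.50, SE 0.45, edgeR FDR 0.54). Prox1, the transcription factor that specifies lymphatic endothelium, was at 2.64, 6.03, 8.44 and 9.81 CPM in TS-R 1 to 4, against 1.80, 4.21 and 4.31 CPM in WTS-R 1 to 3 (log2 fold change 0.96, SE 0.46, edgeR FDR 0.24). In both the lowest TS-R library was TS-R 1, and its value lay below at least 2 WTS-R libraries. In the whole lymphatic and sinus list 4 of 11 genes were higher without overlap (Stab2, Madcam1, Cd209b and Itga2b), and 10 without TS-R 1.

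**Figure D3:**
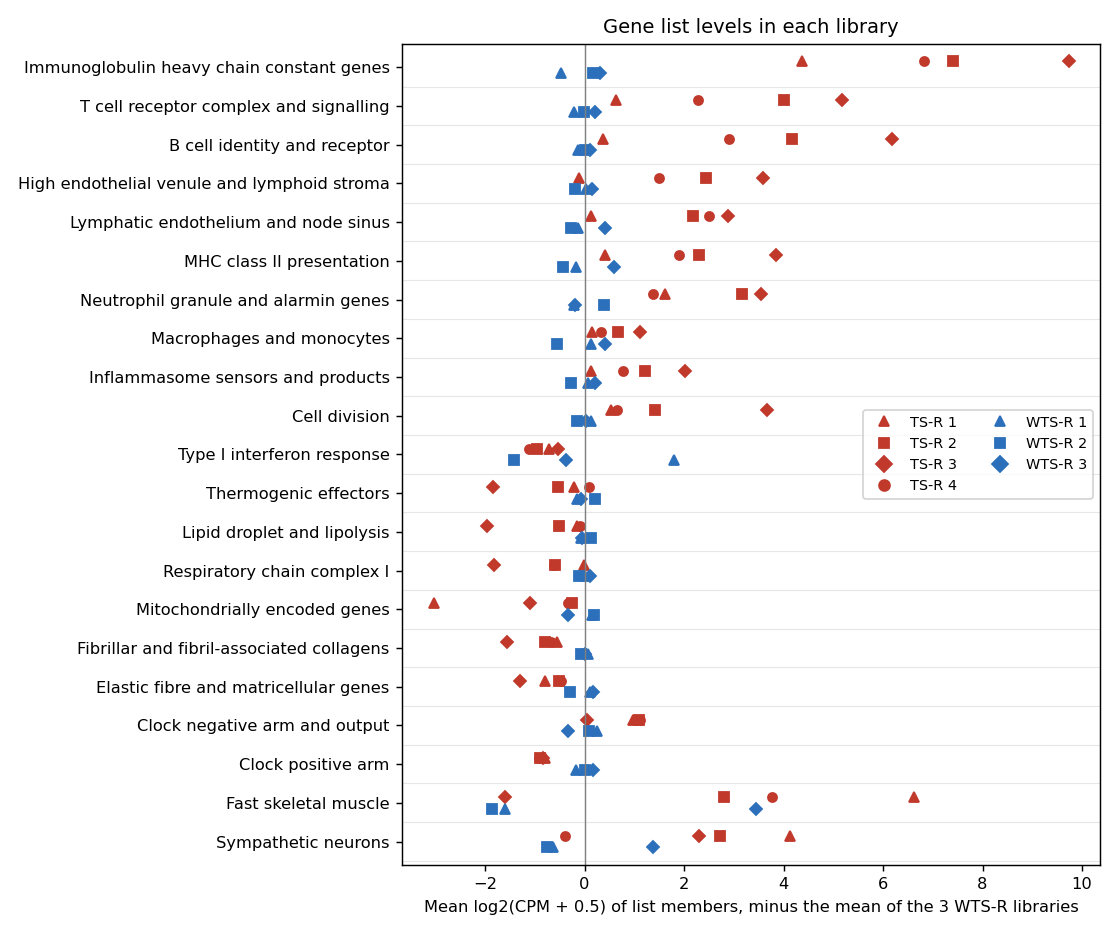
Level of 21 gene lists in each library, as the mean log2(CPM + 0.5) of the tested members minus the mean of the 3 WTS-R libraries (x axis), TS-R in red above and WTS-R in blue below in each row, with the marker shape giving the replicate. TS-R 1 is the lowest and TS-R 3 the highest TS-R library in the lymphocyte and node lists, the type I interferon row shows WTS-R 1 apart from the rest, and the mitochondrially encoded row shows TS-R 1 lowest.

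Antigen presentation genes differed by smaller factors, and TS-R 1 overlapped with WTS-R for most class II genes. The median of the MHC class II list was 1.87, all 13 members had positive values, and 4 of 13 were higher without overlap (H2-Ab1, Cd74, Ciita and H2-DMb2), or all 13 without TS-R 1. Cd74, the invariant chain that escorts class II molecules, was at 683, 893, 2584 and 882 CPM in TS-R 1 to 4, against 231, 225 and 577 CPM in WTS-R 1 to 3 (log2 fold change 1.87, SE 0.52, edgeR FDR 0.0726). H2-Aa, a class II alpha chain gene, was at 215, 391, 969 and 411 CPM in TS-R 1 to 4, against 110.5, 102 and 241 CPM in WTS-R 1 to 3 (log2 fold change 1.72, SE 0.48, edgeR FDR 0.0732). TS-R 1 was below WTS-R 3 for H2-Aa, which was the only overlap. Ciita, the master regulator of class II transcription, was at 4.69, 30.6, 126 and 19.4 CPM in TS-R 1 to 4, against 3.40, 2.45 and 3.79 CPM in WTS-R 1 to 3 (log2 fold change 3.81, SE 0.91, edgeR FDR 0.0624), and it passed without TS-R 1 and 3 (log2 fold change 2.94, edgeR FDR 0.00959).

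Most dendritic cell genes had positive values (13 of 16), and 3 had negative values, down to a log2 fold change of -1.25. Siglech, a marker of plasmacytoid dendritic cells, was at 0.512, 9.75, 18.01 and 7.44 CPM in TS-R 1 to 4, against 0.257, 0.315 and 0.129 CPM in WTS-R 1 to 3 (log2 fold change 5.22, SE 0.99, edgeR FDR 0.0624). Clec9a, the receptor of type 1 conventional dendritic cells for dead cells, was at 4.09, 8.04, 8.10 and 12.7 CPM in TS-R 1 to 4, against 2.37, 2.70 and 2.77 CPM in WTS-R 1 to 3 (log2 fold change 1.65, SE 0.36, edgeR FDR 0.0624). The groups did not overlap for either gene, and Clec9a was highest in TS-R 4. The chemokine receptor gene Xcr1, of the same subset, was at 0.796, 3.84, 4.21 and 3.96 CPM in TS-R 1 to 4, against 0.513, 0.566 and 1.03 CPM in WTS-R 1 to 3 (log2 fold change 2.17, SE 0.57, edgeR FDR 0.0666), and TS-R 1 was below WTS-R 3. The list of 16 dendritic cell genes had 5 of 16 higher without overlap (Clec9a, Siglech, Itgax, Tcf4 and Itgae), and its median was 1.71, or 0.77 without TS-R 3.

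Few macrophage genes separated the groups. Of the macrophage and monocyte list 1 of 24 genes, Gpnmb, was higher without overlap (4.17%, under the 8.96% of all genes), and the median was 0.45. Csf1r, the receptor for the macrophage growth factor, was at 48.1, 82.9, 157 and 103 CPM in TS-R 1 to 4, against 41.2, 35.7 and 54.9 CPM in WTS-R 1 to 3 (log2 fold change 1.16, SE 0.33, edgeR FDR 0.0778), with TS-R 1 below WTS-R 3. The lysosomal gene Cd68 was at 13.7, 23.7, 42.0 and 20.2 CPM in TS-R 1 to 4, against 14.9, 13.5 and 20.8 CPM in WTS-R 1 to 3 (log2 fold change 0.60, SE 0.40, edgeR FDR 0.397). Adgre1, which encodes F4/80, was at 11.3, 15.6, 18.6 and 26.8 CPM in TS-R 1 to 4, against 17.2, 8.55 and 49.3 CPM in WTS-R 1 to 3, so that all 4 TS-R libraries lay inside the WTS-R range. Its log2 fold change was -0.47 (SE 0.49, edgeR FDR 0.603), and 0.48 without WTS-R 3.

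Most neutrophil genes were higher in TS-R, and TS-R 1 was not the lowest library for S100a8, S100a9 and Mmp8. The list had a median of 4.21, and 9 of 13 genes were higher without overlap (69.2%). S100a8 and S100a9 encode the subunits of calprotectin, an alarmin stored in neutrophils. S100a9 was at 36.3, 115, 131 and 23.8 CPM in TS-R 1 to 4, against 1.73, 5.79 and 1.29 CPM in WTS-R 1 to 3 (log2 fold change 4.70, SE 0.72, edgeR FDR 0.0624, DESeq2 adjusted p 2.35e-11). S100a8 was at 14.6, 48.9, 45.8 and 7.32 CPM in TS-R 1 to 4, against 0.770, 3.15 and 0.450 CPM in WTS-R 1 to 3 (log2 fold change 4.32, SE 0.85, edgeR FDR 0.0624). TS-R 4 was the lowest TS-R library for both, and TS-R 2 and 3 were close. Retnlg, a resistin-like secreted protein of neutrophils, was at 4.01, 10.1, 14.8 and 4.88 CPM in TS-R 1 to 4, against 0.0641, 0.440 and 0 CPM in WTS-R 1 to 3 (log2 fold change 5.59, SE 0.88, edgeR FDR 0.0624). The cathelicidin gene Camp was at 1.39, 11.6, 12.8 and 2.80 CPM in TS-R 1 to 4, against 0, 1.13 and 0 CPM in WTS-R 1 to 3 (log2 fold change 4.21, SE 1.24, edgeR FDR 0.0803). Mmp8, the neutrophil collagenase, was at 1.53, 3.41, 6.78 and 0.671 CPM in TS-R 1 to 4, against 0.192, 0.189 and 0 CPM in WTS-R 1 to 3 (edgeR FDR 0.0624), with no fold given because its WTS-R libraries were at or under the 3-count limit. Retnlg, Camp and Mmp8 were at 0 in at least 1 WTS-R library, and WTS-R 2 held most of the WTS-R signal for Camp and Retnlg. Without WTS-R 2 the list median was 5.56. Mast cell and eosinophil genes showed 1 of 9 members, the eosinophil granule gene Prg2, higher without overlap, and the mast cell protease gene Cpa3 was at 5.83, 6.27, 4.52 and 10.2 CPM in TS-R 1 to 4, against 10.4, 6.98 and 16.5 CPM in WTS-R 1 to 3 (log2 fold change -0.76, SE 0.32, edgeR FDR 0.183), with overlap.

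Of the inflammasome genes 6 of 17 were higher without overlap (35.3%, against 8.96% of all genes), Il1b, Aim2, Pycard, Casp1, Nek7 and Pstpip1, and the others, Nlrp3 and Il18 among them, overlapped. Il1b, interleukin-1 beta, was at 1.79, 4.08, 7.17 and 2.93 CPM in TS-R 1 to 4, against 0.513, 0.566 and 0.9004 CPM in WTS-R 1 to 3 (log2 fold change 2.59, SE 0.50, edgeR FDR 0.0624). Aim2, a sensor of cytosolic DNA that was named after its values were seen, was at 3.04, 15.6, 36.5 and 5.24 CPM in TS-R 1 to 4, against 1.48, 1.01 and 2.19 CPM in WTS-R 1 to 3 (log2 fold change 3.28, SE 0.75, edgeR FDR 0.0624). Both genes separated the groups in every library, and both passed without TS-R 1 and 3 (edgeR FDR 0.0112 and 0.0124). Pycard, the adaptor that joins sensor and caspase, was at 4.80, 9.56, 22.4 and 6.34 CPM in TS-R 1 to 4, against 2.89, 2.01 and 4.31 CPM in WTS-R 1 to 3 (log2 fold change 1.81, SE 0.54, edgeR FDR 0.0832). Casp1, the protease that cleaves interleukin-1 beta, was at 14.1, 20.9, 36.6 and 18.7 CPM in TS-R 1 to 4, against 11.7, 7.92 and 12.7 CPM in WTS-R 1 to 3 (log2 fold change 1.07, SE 0.33, edgeR FDR 0.0868). For these adaptor and protease genes the lowest TS-R library was less than 2 CPM above the highest WTS-R library. Nlrp3, the sensor gene that is knocked out in other groups of the series, was at 0.455, 1.22, 2.94 and 1.10 CPM in TS-R 1 to 4, against 0.641, 0.252 and 0.708 CPM in WTS-R 1 to 3 (log2 fold change 1.42, SE 0.68, edgeR FDR 0.239). Its level in TS-R 1 lay between the WTS-R values, and without TS-R 3 its log2 fold change was 0.74. Il18 was at 2.81, 6.03, 8.19 and 4.15 CPM in TS-R 1 to 4, against 4.36, 3.02 and 4.31 CPM in WTS-R 1 to 3 (log2 fold change 0.44, SE 0.40, edgeR FDR 0.539), and TS-R 1 and 4 were below the highest WTS-R library. Txnip, which binds NLRP3 and thioredoxin and had the lowest value of the list, was at 858, 1136, 391 and 1367 CPM in TS-R 1 to 4, against 1221, 1019 and 1354 CPM in WTS-R 1 to 3 (log2 fold change -0.35, SE 0.36, edgeR FDR 0.592), with overlap. The median of the list was 1.47, or 0.85 without TS-R 3. Lymphocyte levels moved with these genes: TS-R 3 was the highest library for Il1b, Aim2, Pycard, Casp1, Nlrp3 and Il18, and the part of lymphoid cells was not tested.

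Receptors and antagonists of the interleukin-1 family had values in both directions. Il1r1, the signalling receptor, was at 11.8, 22.5, 29.1 and 18.4 CPM in TS-R 1 to 4, against 13.3, 15.6 and 13.8 CPM in WTS-R 1 to 3 (log2 fold change 0.52, SE 0.32, edgeR FDR 0.352). Il1rn, the receptor antagonist, was at 2.50, 3.04, 7.90 and 3.66 CPM in TS-R 1 to 4, against 2.05, 1.20 and 3.22 CPM in WTS-R 1 to 3 (log2 fold change 0.99, SE 0.51, edgeR FDR 0.273). The groups overlapped for both. Il18rap, a chain of the interleukin-18 receptor found on NK and T cells, was at 1.51, 6.58, 10.9 and 2.01 CPM in TS-R 1 to 4, against 0.770, 0.503 and 0.643 CPM in WTS-R 1 to 3 (log2 fold change 3.03, SE 0.69, edgeR FDR 0.0624), without overlap. Its partner chain gene Il18r1 was at 1.25, 11.2, 18.4 and 4.02 CPM in TS-R 1 to 4, against 2.12, 1.95 and 1.09 CPM in WTS-R 1 to 3 (log2 fold change 2.34, SE 0.81, edgeR FDR 0.119, DESeq2 adjusted p 0.0182), with TS-R 1 inside the WTS-R range. The list had 3 of 15 genes higher without overlap (20%: Il18rap, Sigirr and Irak4) and a median of 0.31.

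Among other mediators, Tnf was at 1.28, 3.17, 6.24 and 1.58 CPM in TS-R 1 to 4, against 0.770, 0.566 and 1.29 CPM in WTS-R 1 to 3 (log2 fold change 1.81, SE 0.54, edgeR FDR 0.0843), and TS-R 1 lay just under WTS-R 3. Ccl5, a chemokine made by activated T and NK cells, was at 4.46, 56.4, 70.7 and 11.7 CPM in TS-R 1 to 4, against 1.86, 2.64 and 3.47 CPM in WTS-R 1 to 3 (log2 fold change 3.75, SE 0.90, edgeR FDR 0.0624), without overlap. Chemokine ligands as a list had 3 of 26 genes higher (Ccl5, Cxcl1 and Cxcl13) and 2 of 26 lower without overlap (Ccl25 and Ccl28), and a median of 0.03. Cytokine genes had 3 of 18 higher without overlap (Il16, Il4 and Tnfsf13b). C3, the central complement component that adipose tissue makes itself, was at 1250, 933, 1116 and 1132 CPM in TS-R 1 to 4, against 1432, 1073 and 1138 CPM in WTS-R 1 to 3 (log2 fold change -0.13, SE 0.30). Of 17 complement genes made in fat, C6 was the 1 that was higher without overlap.

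Interferon genes did not separate the groups, and 1 WTS-R library carried most of their signal. Of 43 interferon response genes 1, the class II regulator gene Ciita, was higher and 0 were lower without overlap. Isg15, a ubiquitin-like protein induced by type I interferon, was at 16.2, 12.1, 18.5 and 12.6 CPM in TS-R 1 to 4, against 224, 12.1 and 28.9 CPM in WTS-R 1 to 3 (log2 fold change -2.57, SE 0.98, edgeR FDR 0.15). The immunity-related GTPase gene Iigp1 was at 50.7, 77.9, 54.4 and 100.3 CPM in TS-R 1 to 4, against 507, 23.02 and 124 CPM in WTS-R 1 to 3 (log2 fold change -1.62, SE 1.03, edgeR FDR 0.377). WTS-R 1 was the highest library for both. The medians of the type I and interferon gamma lists were -1.52 and -1.40, and 0.06 and 0.27 without WTS-R 1.

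Many cell division genes were higher in TS-R. In this list 15 of 25 were higher without overlap (60.0%), and the median was 2.52, or 1.10 without TS-R 3. Mki67, the proliferation antigen Ki-67, was at 16.5, 29.97, 211 and 13.9 CPM in TS-R 1 to 4, against 5.77, 4.84 and 4.18 CPM in WTS-R 1 to 3 (log2 fold change 3.78, SE 0.93, edgeR FDR 0.0624). Top2a, the topoisomerase that untangles replicated DNA, was at 15.6, 23.5, 166 and 13.2 CPM in TS-R 1 to 4, against 5.71, 3.96 and 4.76 CPM in WTS-R 1 to 3 (log2 fold change 3.51, SE 0.84, edgeR FDR 0.0624). TS-R 3 was the highest TS-R library for all 25 genes, and for Mki67 and Top2a the other 3 TS-R libraries were also above every WTS-R library. Both genes passed without TS-R 1 and 3 (edgeR FDR 0.0344 and 0.0147), where 5 of 25 of the list did.

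Ucp1 and Cidea were lower in TS-R. The share of genes lower without overlap was above that of all genes for thermogenic effectors, but not for adipogenic factors. Ucp1, the uncoupling protein, was at 999, 1255, 303 and 1820 CPM in TS-R 1 to 4, against 2356, 4367 and 2285 CPM in WTS-R 1 to 3 (log2 fold change -1.46, SE 0.46, edgeR FDR 0.0946, DESeq2 adjusted p 0.0171). Cidea, a lipid droplet protein of brown adipocytes, was at 1572, 1171, 351 and 1321 CPM in TS-R 1 to 4, against 2134, 2132 and 2106 CPM in WTS-R 1 to 3 (log2 fold change -0.94, SE 0.41, edgeR FDR 0.197). Neither gene overlapped between the groups, and TS-R 3 was the lowest library for both. Dio2, which makes active thyroid hormone inside brown fat, was at 10.4, 51.4, 21.5 and 74.3 CPM in TS-R 1 to 4, against 94.7, 362 and 44.4 CPM in WTS-R 1 to 3 (log2 fold change -2.09, SE 0.81, edgeR FDR 0.153), with overlap. Klb, the co-receptor that lets cells sense FGF21, was at 15.9, 14.8, 5.99 and 19.8 CPM in TS-R 1 to 4, against 42.5, 57.4 and 39.6 CPM in WTS-R 1 to 3 (log2 fold change -1.72, SE 0.35, edgeR FDR 0.0624, DESeq2 adjusted p 0.000262), and it passed without TS-R 1 and 3 (log2 fold change -1.45, edgeR FDR 0.0318). The regulators of brown fat identity were closer: Prdm16 was at 18.3, 14.2, 7.25 and 14.3 CPM in TS-R 1 to 4, against 22.3, 18.4 and 9.97 CPM in WTS-R 1 to 3 (log2 fold change -0.32, SE 0.36, edgeR FDR 0.633). Ebf2 was at 26.4, 31.1, 13.8 and 39.9 CPM in TS-R 1 to 4, against 40.7, 61.6 and 29.5 CPM in WTS-R 1 to 3 (log2 fold change -0.66, SE 0.34, edgeR FDR 0.264). Both overlapped, as did the adipogenic receptor gene Pparg, at 119, 182, 56.9 and 234 CPM in TS-R 1 to 4, against 242, 252 and 161 CPM in WTS-R 1 to 3 (log2 fold change -0.56, SE 0.37, edgeR FDR 0.386). Of 42 brown adipocyte genes 1 (Gatm) was higher and 5 (Ucp1, Cidea, Kcnk3, Slc25a20 and Cebpb) were lower without overlap (11.9%, against 8.15% of all genes). By list, 4 of 19 thermogenic effectors (21.1%) and 1 of 23 brown and general adipogenic factors (4.35%) were lower without overlap. Klb is not among the 42. Without TS-R 1 and 3 edgeR called 0 of 19 thermogenic effectors and 0 of 23 brown and general adipogenic factors lower. The median of the thermogenic effectors was -0.74, or -0.47 without TS-R 3.

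General adipocyte genes were lower without overlap in a share near that of all genes, with TS-R 3 the lowest TS-R library for most. Adipoq, adiponectin, was at 1049, 912, 363 and 1298 CPM in TS-R 1 to 4, against 1679, 1669 and 1743 CPM in WTS-R 1 to 3 (log2 fold change -0.91, SE 0.35, edgeR FDR 0.155), without overlap. The lipid droplet coat gene Plin1 was at 917, 758, 244 and 1202 CPM in TS-R 1 to 4, against 942, 1248 and 1027 CPM in WTS-R 1 to 3 (log2 fold change -0.46, SE 0.39, edgeR FDR 0.515), with overlap. Pnpla2, the first lipase of triglyceride breakdown, was at 2753, 1768, 454 and 2750 CPM in TS-R 1 to 4, against 3109, 2585 and 3169 CPM in WTS-R 1 to 3 (log2 fold change -0.61, SE 0.46, edgeR FDR 0.46), with overlap. Leptin, Lep, went the other way through TS-R 1 and was at 292, 62.5, 20.5 and 30.2 CPM in TS-R 1 to 4, against 26.2, 29.4 and 23.5 CPM in WTS-R 1 to 3 (log2 fold change 1.94, SE 0.75, edgeR FDR 0.152). Fasn, fatty acid synthase, was at 3724, 5372, 1918 and 2248 CPM in TS-R 1 to 4, against 2233, 4401 and 2219 CPM in WTS-R 1 to 3 (log2 fold change 0.17, SE 0.48, edgeR FDR 0.871), and the sign of its value turned without WTS-R 1 (-0.01), WTS-R 3 (-0.01) or TS-R 2 (-0.15). Of 64 adipocyte genes 0 were higher and 7 were lower without overlap (10.9%, against 8.15% of all genes). TS-R 3 was the lowest TS-R library for 52 of the 64, and lymphoid transcripts were highest in that library; their part in its low adipocyte values was not tested. Fatty acid and triglyceride synthesis had 4 of 23 lower without overlap (Dgat1, Agpat2, Agpat3 and Elovl5). Without TS-R 3 the median of the lipid droplet and lipolysis list was -0.28 in place of -0.55. Without TS-R 1 and 3 edgeR called 0 of 19 adipokine genes, 0 of 22 lipid droplet and lipolysis genes and 0 of 23 synthesis genes lower.

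Many mitochondrial genes were lower in TS-R by small amounts. Of 93 genes 37 were lower without overlap (39.8%, against 8.15% of all genes) and 0 were higher. The medians were -0.62 for fatty acid oxidation, -0.61 for respiratory complex I and -0.61 for complexes II to V, or -0.33, -0.37 and -0.40 without TS-R 3. Slc25a20, the carrier that brings acylcarnitines into mitochondria, was at 180.1, 195, 70.7 and 300 CPM in TS-R 1 to 4, against 349, 388 and 342 CPM in WTS-R 1 to 3 (log2 fold change -0.95, SE 0.35, edgeR FDR 0.134). Cpt2, which releases the acyl group inside, was at 252, 178, 68.3 and 235 CPM in TS-R 1 to 4, against 299.6, 315 and 317 CPM in WTS-R 1 to 3 (log2 fold change -0.76, SE 0.35, edgeR FDR 0.222). The complex I subunit gene Ndufa1 was at 148, 156, 84.9 and 167 CPM in TS-R 1 to 4, against 294, 295 and 331 CPM in WTS-R 1 to 3 (log2 fold change -1.14, SE 0.31, edgeR FDR 0.0691). All TS-R libraries were below all WTS-R libraries for these 3 genes. Cox6a1, a subunit of cytochrome oxidase, was at 857, 848, 309.8 and 907 CPM in TS-R 1 to 4, against 1478, 1603 and 1674 CPM in WTS-R 1 to 3 (log2 fold change -1.12, SE 0.39, edgeR FDR 0.117). TS-R 3 was the lowest TS-R library for 81 of the 93 genes. Without TS-R 1, 26 of 27 complex I genes and 28 of 32 genes of complexes II to V were lower without overlap, against 17.1% of all genes. Few of these genes were called lower. Without TS-R 1 and 3 edgeR called 1 of 27 complex I genes and 1 of 32 of complexes II to V lower (all genes, 0.38%). Of 21 fatty acid oxidation genes it called 1 lower and 1 higher. With all libraries DESeq2 called 0 of 21 oxidation genes, 1 of 27 complex I genes and 5 of 32 of complexes II to V lower (all genes, 1.97%).

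Genes on the mitochondrial genome behaved differently in TS-R 1. They took 6.11, 22.7, 15.3 and 22.5% of counts in TS-R 1 to 4, against 25.5, 27.1 and 21.1% in WTS-R 1 to 3. The complex I gene mt-Nd1 was at 1540, 15030, 8426 and 14110 CPM in TS-R 1 to 4, against 18970, 22400 and 16510 CPM in WTS-R 1 to 3 (log2 fold change -0.98, SE 0.59, edgeR FDR 0.346). The level of mt-Nd1 in TS-R 1 was thus the lowest by a factor of more than 5, although nuclear complex I genes in TS-R 1 were at a level of 8.49, as in WTS-R (8.39 to 8.61). Of the mitochondrially encoded genes 6 of 13 were lower without overlap. Their median was -0.89, or -0.43 without TS-R 1 and 3, where edgeR called 0 of 13 lower. With all libraries DESeq2 called 2 of 13 lower (all genes, 1.97%).

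Many matrix genes were lower in TS-R. Of the fibrillar and fibril-associated collagens 11 of 17 were lower without overlap (64.7%, against 8.15% of all genes), of the cross-linking and processing genes 10 of 18, and of the elastic fibre and matricellular genes 14 of 28. Their medians were -0.93, -0.69 and -0.81, and -0.81, -0.55 and -0.71 without TS-R 3. Without TS-R 1 and 3 the medians were -0.84, -0.52 and -0.58. There edgeR called 2 of 17, 3 of 18 and 0 of 28 genes lower (all genes, 0.38%). With all libraries DESeq2 called 9 of 17, 6 of 18 and 12 of 28 lower (all genes, 1.97%). Col3a1, the collagen of loose and vascular connective tissue, was at 306, 235, 123 and 305 CPM in TS-R 1 to 4, against 963, 804 and 924 CPM in WTS-R 1 to 3 (log2 fold change -1.89, SE 0.46, edgeR FDR 0.0624). Col1a1, the main collagen of stiff fibres, was at 114, 90.6, 58.2 and 97.8 CPM in TS-R 1 to 4, against 364, 258 and 316 CPM in WTS-R 1 to 3 (log2 fold change -1.80, SE 0.47, edgeR FDR 0.0664). For both collagens the highest TS-R library lay far below the lowest WTS-R library. Col3a1 did not pass without TS-R 1 and 3 (log2 fold change -1.75, edgeR FDR 0.104).

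Of the lysyl oxidases, which cross-link collagen and elastin, Lox, Loxl1 and Loxl2 were lower without overlap. Loxl2 was at 9.55, 11.4, 6.15 and 13.7 CPM in TS-R 1 to 4, against 30.1, 28.1 and 20.6 CPM in WTS-R 1 to 3 (log2 fold change -1.37, SE 0.26, edgeR FDR 0.0624, DESeq2 adjusted p 0.000157). Lox was at 17.96, 15.2, 6.78 and 19.2 CPM in TS-R 1 to 4, against 38.9, 32.3 and 32.7 CPM in WTS-R 1 to 3 (log2 fold change -1.23, SE 0.31, edgeR FDR 0.0625). Loxl1, which acts on elastin, was at 23.7, 20.8, 8.81 and 24.5 CPM in TS-R 1 to 4, against 55.3, 42.1 and 58.7 CPM in WTS-R 1 to 3 (log2 fold change -1.42, SE 0.38, edgeR FDR 0.0675). Loxl3 was at 8.19, 9.87, 5.59 and 6.95 CPM in TS-R 1 to 4, against 11.3, 9.37 and 10.1 CPM in WTS-R 1 to 3 (log2 fold change -0.42, SE 0.25, edgeR FDR 0.346), with TS-R 2 above WTS-R 2. Of these genes Loxl2 and Lox passed without TS-R 1 and 3 (edgeR FDR 0.0372 and 0.0483). Their substrate gene Eln, elastin, was at 49.1, 44.0, 33.7 and 33.3 CPM in TS-R 1 to 4, against 100.5, 72.0 and 114 CPM in WTS-R 1 to 3 (log2 fold change -1.26, SE 0.43, edgeR FDR 0.117). Mfap4, a microfibril protein of elastic fibres, was at 3.61, 7.61, 2.68 and 5.30 CPM in TS-R 1 to 4, against 30.9, 13.96 and 31.6 CPM in WTS-R 1 to 3 (log2 fold change -2.42, SE 0.56, edgeR FDR 0.0624). The matricellular gene Postn, periostin, was at 96.5, 124, 84.8 and 123 CPM in TS-R 1 to 4, against 189, 199 and 189 CPM in WTS-R 1 to 3 (log2 fold change -0.84, SE 0.19, edgeR FDR 0.0624). All 3 were lower without overlap, and Mfap4 had the most negative value of its list. Lum, lumican, a proteoglycan that spaces collagen fibrils and a gene named after its values were seen, was at 29.2, 42.5, 29.5 and 48.6 CPM in TS-R 1 to 4, against 68.3, 62.8 and 76.0 CPM in WTS-R 1 to 3 (log2 fold change -0.88, SE 0.19, edgeR FDR 0.0624).

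Other matrix genes were less clear. Fn1, fibronectin, was at 92.2, 156, 174 and 190 CPM in TS-R 1 to 4, against 329, 177 and 218 CPM in WTS-R 1 to 3 (log2 fold change -0.65, SE 0.31, edgeR FDR 0.235), and TS-R 4 was above WTS-R 2. Col4a1, of the basement membrane, was at 458, 284, 152 and 367 CPM in TS-R 1 to 4, against 712, 818 and 505 CPM in WTS-R 1 to 3 (log2 fold change -1.11, SE 0.33, edgeR FDR 0.0806), without overlap, but only 2 of 17 basement membrane genes were lower without overlap (Col4a1 and Lamb1). The gelatinase gene Mmp2 was at 55.9, 34.8, 20.9 and 47.9 CPM in TS-R 1 to 4, against 64.8, 54.1 and 68.7 CPM in WTS-R 1 to 3 (log2 fold change -0.65, SE 0.29, edgeR FDR 0.217), with TS-R 1 above WTS-R 2. Timp1, an inhibitor of such proteases, was at 2.47, 1.77, 2.15 and 1.34 CPM in TS-R 1 to 4, against 2.57, 3.52 and 6.75 CPM in WTS-R 1 to 3 (log2 fold change -1.14, SE 0.45, edgeR FDR 0.166), without overlap. Over the 119 matrix genes 42 were lower (35.3%) and 3 higher (2.52%) without overlap, the higher ones being Adamts14 and the leukocyte proteases Mmp8 and Mmp9, and TS-R 3 was the lowest TS-R library for 90 of them.

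**Figure D4:**
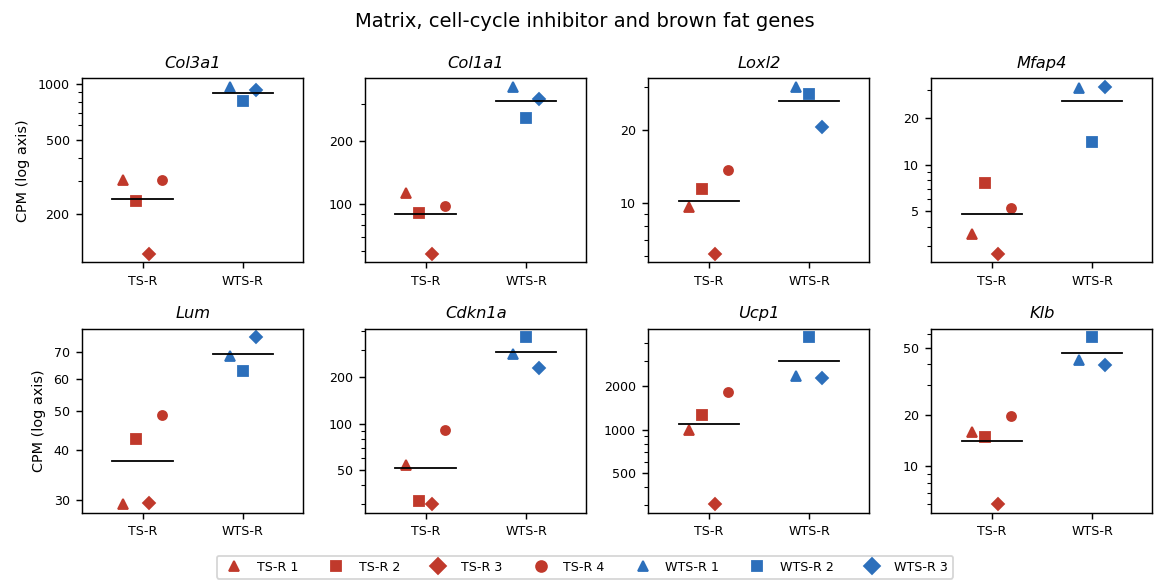
Level of 8 genes in each library (CPM, log y axis), TS-R in red and WTS-R in blue, with the marker shape giving the replicate and the black line the group mean (n = 4 and 3). The groups do not overlap for any of these 8 genes, and for Col3a1 the TS-R libraries lie between 123 and 306 CPM and the WTS-R libraries between 804 and 963 CPM.

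Few vessel wall genes separated the groups. Pecam1, an adhesion molecule of all endothelium, was at 229.5, 212, 194 and 181 CPM in TS-R 1 to 4, against 172, 170 and 160.1 CPM in WTS-R 1 to 3 (log2 fold change 0.29, SE 0.19, edgeR FDR 0.393), a small difference without overlap. Sele, E-selectin, which cytokine-activated endothelium displays to capture leukocytes, was at 2.47, 2.254, 2.004 and 1.65 CPM in TS-R 1 to 4, against 0.577, 0.252 and 0.322 CPM in WTS-R 1 to 3 (log2 fold change 2.43, SE 0.72, edgeR FDR 0.0805), and here TS-R 1 was the highest library and TS-R 4 the lowest. Of 65 vessel wall genes 2, Pecam1 and Sele, were higher (3.08%) and 5 (Esam, Sox17, Rgs5, Adora2a and Cth) were lower (7.69%) without overlap. The smooth muscle contractile list had a median of 0.01 and the vasoactive list -0.23.

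Circadian clock genes differed in both directions. The clock is a loop in which ARNTL with CLOCK or NPAS2 drives genes through E-boxes, among them the PER and CRY repressors and the output factors DBP and TEF, which act on D-boxes where NFIL3 competes with them. In the negative arm and output list 4 of 16 genes were higher (Dbp, Per3, Bhlhe41 and Bhlhe40) and 1 of 16 lower without overlap (Nfil3), with a median of 1.05. Without TS-R 3 the counts were 9 and 1 of 16, against 10.6% and 9.47% of all genes, and the median was 1.30. In the positive arm list 4 of 7 were lower without overlap (Arntl, Npas2, Clock and Nfil3, 57.1%), with a median of -0.66. Nfil3 and Cry1 are on both lists, although they are not the drivers ARNTL, CLOCK and NPAS2. Nfil3 is therefore counted as lower in each list. The promoters of 3 clock genes are shown because they carry the letters of these elements, with each match in capitals (RefSeq, GRCm38.p6, from 250 bases before to 50 after the start). Bhlhe41 and Ciart have the E-box CACGTG and Per3 the D-box TTATGTAA. Cry1, Per1 and Tef, not shown, also have the E-box. Ciart, Cry1, Per1 and Tef overlapped between the groups. Dbp, which was higher without overlap, has neither element.
Per3 promoter, chr4:151044616-151044915, minus strand: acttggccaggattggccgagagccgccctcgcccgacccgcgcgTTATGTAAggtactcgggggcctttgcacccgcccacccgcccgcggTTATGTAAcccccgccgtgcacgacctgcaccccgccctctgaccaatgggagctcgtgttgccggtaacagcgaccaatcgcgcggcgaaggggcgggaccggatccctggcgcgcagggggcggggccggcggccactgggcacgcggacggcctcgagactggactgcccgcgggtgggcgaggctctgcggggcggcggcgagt
Bhlhe41 promoter, chr6:145865371-145865670, minus strand: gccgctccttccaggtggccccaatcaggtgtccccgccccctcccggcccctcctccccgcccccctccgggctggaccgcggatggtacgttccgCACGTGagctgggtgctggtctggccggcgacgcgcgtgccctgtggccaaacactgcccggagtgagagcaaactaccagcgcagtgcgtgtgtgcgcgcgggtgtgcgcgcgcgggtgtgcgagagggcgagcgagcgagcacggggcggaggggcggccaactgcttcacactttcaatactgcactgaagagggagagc
Ciart promoter, chr3:95882179-95882478, minus strand: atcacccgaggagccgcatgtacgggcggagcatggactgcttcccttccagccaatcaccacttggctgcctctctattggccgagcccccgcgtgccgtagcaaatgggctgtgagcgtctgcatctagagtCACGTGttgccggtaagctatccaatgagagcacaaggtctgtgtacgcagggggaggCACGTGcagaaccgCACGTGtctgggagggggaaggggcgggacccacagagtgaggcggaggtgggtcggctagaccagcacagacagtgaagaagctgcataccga
E-box letters (CACGTG, which reads the same on both strands) were found for 5 of 13 negative arm and output genes with a promoter sequence (38.5%), 1 of 7 positive arm genes (14.3%) and 8.09% of 27025 genes. The positive arm match is Cry1, which is on both lists and is also counted among the 5. D-box letters (TTATGTAA on either strand, or TTACGTAA, neither of which contains CACGTG) were found for 1 of 13 (7.69%), 0 of 7 and 1.23%. A match of letters is a description and not a bound site.

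Dbp, Per3 and Bhlhe41 were several times higher in TS-R, whereas Tef, Ciart, Nr1d1 and Per1 overlapped between the groups. Dbp was at 79.4, 90.6, 24.2 and 58.2 CPM in TS-R 1 to 4, against 11.2, 4.28 and 3.67 CPM in WTS-R 1 to 3 (log2 fold change 3.30, SE 0.74, edgeR FDR 0.0624). Per3 was at 94.1, 72.4, 34.1 and 54.1 CPM in TS-R 1 to 4, against 16.9, 11.3 and 11.8 CPM in WTS-R 1 to 3 (log2 fold change 2.26, SE 0.52, edgeR FDR 0.0624). Bhlhe41, a repressor of the loop named after its values were seen, was at 39.1, 35.4, 22.2 and 17.1 CPM in TS-R 1 to 4, against 6.48, 4.84 and 4.37 CPM in WTS-R 1 to 3 (log2 fold change 2.44, SE 0.50, edgeR FDR 0.0624). The 3 genes did not overlap between the groups, and WTS-R 1 was the highest WTS-R library for each. All 3 passed without TS-R 1 and 3 (edgeR FDR 0.0359, 0.0499 and 0.0495). Tef, also named after its values were seen, was at 293, 237, 94.2 and 222 CPM in TS-R 1 to 4, against 109.9, 81.1 and 45.8 CPM in WTS-R 1 to 3 (log2 fold change 1.42, SE 0.51, edgeR FDR 0.126), with TS-R 3 below WTS-R 1. Ciart, an ARNTL repressor named in the same way, was at 3.33, 8.71, 4.52 and 11.9 CPM in TS-R 1 to 4, against 3.27, 3.52 and 1.99 CPM in WTS-R 1 to 3 (log2 fold change 1.27, SE 0.87, edgeR FDR 0.413), with TS-R 1 below WTS-R 2. Nr1d1, the nuclear receptor that represses Arntl, was at 103, 159, 34.1 and 180.3 CPM in TS-R 1 to 4, against 103, 43.9 and 28.1 CPM in WTS-R 1 to 3 (log2 fold change 1.03, SE 0.52, edgeR FDR 0.261), with overlap. Per1, which also answers to hormones and activity, was at 62.2, 114, 71.7 and 177 CPM in TS-R 1 to 4, against 148, 154 and 107 CPM in WTS-R 1 to 3 (log2 fold change -0.36, SE 0.40), with overlap and a value of 0.07 without TS-R 1 and 3.

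Npas2, Nfil3, Arntl and Clock were lower, whereas the other 3 genes of the positive arm list, Arntl2, Cry1 and Rora, overlapped. Npas2 was at 1.05, 1.03, 0.903 and 0.488 CPM in TS-R 1 to 4, against 3.72, 5.35 and 7.59 CPM in WTS-R 1 to 3 (log2 fold change -2.65, SE 0.60, edgeR FDR 0.0624). Nfil3 was at 13.9, 6.27, 8.02 and 8.84 CPM in TS-R 1 to 4, against 40.6, 45.3 and 44.6 CPM in WTS-R 1 to 3 (log2 fold change -2.23, SE 0.46, edgeR FDR 0.0624, DESeq2 adjusted p 0.000132). Arntl was at 3.41, 5.24, 13.2 and 2.99 CPM in TS-R 1 to 4, against 14.4, 18.4 and 19.3 CPM in WTS-R 1 to 3 (log2 fold change -1.47, SE 0.75, edgeR FDR 0.266). These 3 genes were lower without overlap, with TS-R 3 the nearest to WTS-R for Arntl. Clock was at 33.6, 28.3, 30.4 and 41.9 CPM in TS-R 1 to 4, against 46.8, 68.5 and 43.4 CPM in WTS-R 1 to 3 (log2 fold change -0.66, SE 0.23, edgeR FDR 0.118), a smaller difference, also without overlap. TS-R 1, whose lymphocyte levels were nearest to WTS-R, was with the other TS-R libraries for Dbp, Per3, Npas2 and Nfil3. Collection time is not in the labels, so a difference in time of day and the donor difference cannot be told apart.

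**Figure D5:**
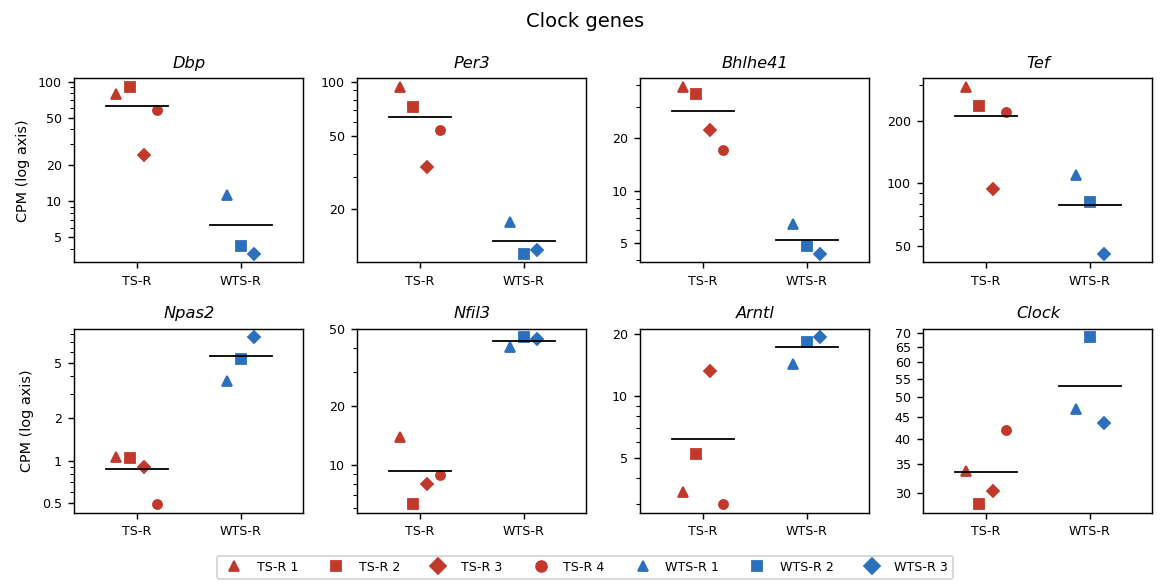
Level of 8 clock genes in each library (CPM, log y axis), TS-R in red and WTS-R in blue, with the marker shape giving the replicate and the black line the group mean (n = 4 and 3). The top row holds genes that are higher in TS-R, with Tef in TS-R 3 (94.2 CPM) under WTS-R 1 (109.9 CPM), and the bottom row genes that are lower in all 4 TS-R libraries.

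Cdkn1a was among the most separated genes on the lower side. This gene, which encodes the cell-cycle inhibitor p21 and answers to p53 and glucocorticoids, was at 53.6, 31.7, 30.1 and 90.5 CPM in TS-R 1 to 4, against 282, 363 and 231 CPM in WTS-R 1 to 3 (log2 fold change -2.50, SE 0.45, edgeR FDR 0.0624, DESeq2 adjusted p 8.27e-06). The 17 p53 target and senescence genes had a median of 0.15 and 3 of 17 lower without overlap (Cdkn1a, Ccng1 and Perp), and the 18 glucocorticoid-responsive genes a median of -0.31 and 3 of 18 lower (Cdkn1a, Sgk1 and Mt2). Fkbp5, a chaperone gene that glucocorticoids induce, was at 48.9, 44.5, 43.2 and 40.0 CPM in TS-R 1 to 4, against 40.0, 43.8 and 13.6 CPM in WTS-R 1 to 3 (log2 fold change 0.44, SE 0.32, edgeR FDR 0.435), with overlap. The immediate early gene Egr1 was at 265, 217, 57.4 and 52.9 CPM in TS-R 1 to 4, against 22.3, 50.3 and 59.1 CPM in WTS-R 1 to 3 (log2 fold change 1.75, SE 0.63, edgeR FDR 0.13), where TS-R 3 and 4 lay within the WTS-R range, and of its list Junb and Zfp36 were higher without overlap. Heat shock chaperones had 0 of 14 genes higher and 0 lower without overlap, and endoplasmic reticulum stress genes 1 of 17 (Chac1) and 0.

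Antioxidant genes held members at both extremes. In this list 8 of 20 genes were lower without overlap (40.0%). Gpx8, a peroxidase of the endoplasmic reticulum, was at 36.4, 41.5, 31.8 and 65.5 CPM in TS-R 1 to 4, against 111, 115 and 99.2 CPM in WTS-R 1 to 3 (log2 fold change -1.31, SE 0.24, edgeR FDR 0.0624), and it passed without TS-R 1 and 3 (edgeR FDR 0.0483). Slc7a11, the cystine importer gene, was at 0.341, 3.23, 6.29 and 0.792 CPM in TS-R 1 to 4, against 0.0641, 0.0629 and 0.0643 CPM in WTS-R 1 to 3, which is 1 count in each WTS-R library, so no fold is given. Cytosolic ribosomal protein genes showed no separated member (0 of 33 in either direction), with a median of 0.20.

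By the naming rule the 12 genes with the smallest p on each side also held genes not yet described. On the higher side Slc2a3, the glucose transporter GLUT3 of leukocytes and neurons, was at 11.6, 12.8, 20.3 and 6.04 CPM in TS-R 1 to 4, against 3.14, 3.02 and 2.57 CPM in WTS-R 1 to 3 (log2 fold change 2.12, SE 0.37, edgeR FDR 0.0624). Rtn1, a reticulon of the endoplasmic reticulum, was at 18.8, 11.7, 11.8 and 6.10 CPM in TS-R 1 to 4, against 1.99, 1.38 and 3.28 CPM in WTS-R 1 to 3 (log2 fold change 2.45, SE 0.42, edgeR FDR 0.0624), highest in TS-R 1. Mnt, a repressor that competes with MYC for its partner MAX, was at 17.4, 22.6, 25.3 and 15.4 CPM in TS-R 1 to 4, against 9.04, 8.62 and 7.97 CPM in WTS-R 1 to 3 (log2 fold change 1.24, SE 0.22, edgeR FDR 0.0624). The spread of Mnt was narrow within each group. Trpm2, a calcium channel opened by oxidative stress, was at 2.81, 9.14, 27.04 and 8.596 CPM in TS-R 1 to 4, against 0.706, 0.566 and 1.42 CPM in WTS-R 1 to 3 (log2 fold change 3.73, SE 0.70, edgeR FDR 0.0624). Gm47015, a predicted gene, was at 27.8, 60.5, 118 and 20.4 CPM in TS-R 1 to 4, against 9.30, 6.29 and 8.94 CPM in WTS-R 1 to 3 (log2 fold change 2.79, SE 0.52, edgeR FDR 0.0624). Rasal1, a RAS GTPase-activating protein, was at 0.512, 5.48, 13.8 and 3.54 CPM in TS-R 1 to 4, against 0.192, 0 and 0.0643 CPM in WTS-R 1 to 3, with 4 counts over the WTS-R group.

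On the lower side Elovl5, an elongase of polyunsaturated fatty acids, was at 72.0, 80.4, 86.6 and 83.0 CPM in TS-R 1 to 4, against 139, 151 and 154 CPM in WTS-R 1 to 3 (log2 fold change -0.88, SE 0.19, edgeR FDR 0.0624). Ipo4, a nuclear import receptor, was at 17.8, 18.6, 18.7 and 21.9 CPM in TS-R 1 to 4, against 33.2, 30.6 and 29.8 CPM in WTS-R 1 to 3 (log2 fold change -0.70, SE 0.14, edgeR FDR 0.0624). Elovl5 and Ipo4 had small differences with little spread inside each group, and TS-R 3 did not stand apart for either. Klhl25, an adaptor of a ubiquitin ligase, was at 18.4, 21.7, 20.2 and 40.4 CPM in TS-R 1 to 4, against 79.2, 87.1 and 51.8 CPM in WTS-R 1 to 3 (log2 fold change -1.53, SE 0.32, edgeR FDR 0.0624). Hacd2, an enzyme of very long chain fatty acid synthesis, was at 33.8, 54.5, 26.1 and 58.5 CPM in TS-R 1 to 4, against 103, 109 and 100.7 CPM in WTS-R 1 to 3 (log2 fold change -1.27, SE 0.26, edgeR FDR 0.0624). Car13, a carbonic anhydrase, was at 16.03, 16.99, 18.9 and 29.3 CPM in TS-R 1 to 4, against 42.1, 47.3 and 35.4 CPM in WTS-R 1 to 3 (log2 fold change -1.04, SE 0.21, edgeR FDR 0.0624). Fam222a was at 2.05, 2.13, 1.44 and 3.72 CPM in TS-R 1 to 4, against 6.54, 10.5 and 7.33 CPM in WTS-R 1 to 3 (log2 fold change -1.81, SE 0.37, edgeR FDR 0.0624). Of these 6 genes Ipo4 and Hacd2 passed without TS-R 1 and 3 (edgeR FDR 0.0483 and 0.0406).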

How the data were processed

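Bulk mRNA libraries of mouse perivascular adipose tissue were compared, 4 TS-R against 3 WTS-R, grouped by sample title. The deposited table holds whole-number counts per gene for 13 libraries. HISAT2 and featureCounts are named per the submitters' processing notes. The sources used here give neither their versions nor the genome build, annotation or strand option, so reads of overlapping or antisense genes cannot be told apart. Per the labels' protocols RNA was extracted with TRIzol, its integrity was checked, and paired-end libraries were made with an ABclonal kit. Of 34013 gene identifiers 33302 were matched to a symbol.

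For the tests the deposited counts entered edgeR 4.0.16 (R 4.3.3): filterByExpr, TMM, 1 quasi-likelihood fit over all 13 libraries with 4 group means, the contrast TS-R minus WTS-R, and Benjamini-Hochberg adjustment over 17270 genes at 0.05. All groups shared the estimate of spread (common biological coefficient of variation 0.389, prior degrees of freedom 3.5). The standard error (SE) is the size of the fitted log2 fold change divided by the square root of F. CPM used TMM-scaled library sizes. List levels are means of log2(CPM + 0.5). For a single value 4 against 3 libraries allow 35 assignments, so an exact two-sided permutation test could not go under 0.0571 and overlap is given as a description. No libraries matched within sampling noise. The script was tested on simulated data.

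Members and the 60 gene lists were chosen with earlier results of these data known, so lists are described and not tested. Named are Nlrp3, Il1b, Il18, Pycard and Casp1, the first 4 tested genes and the extremes of each list, and the 12 genes per direction with the smallest p among genes without overlap and a mean of 5 CPM or more in the higher group. Aim2, Lum, Bhlhe41, Tef and Ciart, and names behind small counts, were chosen after their values were seen. Genes were printed from these by what they show, and a few are not reported here. Other settings were DESeq2 1.42.0, limma 3.58.1 with voomWithQualityWeights, RLE scaling, no filter, the 7 libraries alone, a replicate block, each library left out, TS-R 1 and 3 left out, and Y-linked libraries only. Promoters are RefSeq's (GRCm38.p6), and 1 chromosome was left out of the motif counts.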

Additional observations from a re-analysis of the deposited data

Results flagged for a closer look

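Of 186 values tested in TS-R (126 genes and 60 gene lists), 8 had 1 library far from the other 3 by Dixon's ratio at its 95% critical value, and chance flags about 1 in 20. Groups of 3 were not tested, so WTS-R is not covered. The gaps are given as values only, and their cause was not tested.

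TS-R 3 was the low library in 7 of the 8. Its level of matrix protease and inhibitor genes was 3.48 (mean log2(CPM + 0.5)), where TS-R 1, 2 and 4 were at 3.84, 3.80 and 3.80. Its level of fibroblast and preadipocyte genes was 4.83, against 5.45, 5.38 and 5.35 in those libraries. Its level of the clock negative arm and output was 4.48, against 5.42, 5.52 and 5.54. The level of sex-linked genes in TS-R 3 was -0.98, against 4.91, 5.33 and 5.21, in the library that held Xist and almost no Y-linked counts.

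Among single genes, the cytochrome oxidase subunit gene Cox6a1 was at 310 CPM in TS-R 3, the lysyl oxidase gene Loxl1 at 8.81 CPM, and the atrial myosin light chain gene Myl7 at 31.0 CPM. The same genes were at 857, 848, 309.8 and 907 CPM, 23.7, 20.8, 8.81 and 24.5 CPM and 116, 124, 31.0 and 139.5 CPM over TS-R 1 to 4. The chemokine receptor gene Xcr1 was at 0.796 CPM in TS-R 1, where the other TS-R libraries were at 3.84 to 4.21 CPM.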

How the results depend on the processing

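The edgeR counts of 0 higher and 0 lower genes did not hold in every setting. They were 1566 and 340 with DESeq2, 2332 and 1484 with voomWithQualityWeights, 824 and 65 with no filter on low counts, 619 and 165 with a replicate block, 627 and 67 without TS-R 1 and 3, and 49 and 1 among libraries with Y-linked transcripts. Leaving out 1 library gave 0 to 1543 higher and 0 to 363 lower genes, with calls only without TS-R 1 (1543 and 363) or TS-R 4 (984 and 254). RLE scaling and the fit on the 7 libraries alone gave 0 and 0, with 2675 higher and 1137 lower genes at an unadjusted p under 0.05 with RLE, and 1987 and 671 with 7 libraries. Replicate numbers are shared between the groups, but same-numbered libraries did not deviate together (correlations -0.20, -0.05 and -0.13), so the block is not a pairing.

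Genes without overlap numbered 1548 higher and 1408 lower, 3414 and 3559 without TS-R 1 and 3, and 1695 to 2972 and 1606 to 2955 when 1 library was left out. Fewer samples overlap less by construction. Of the single-gene values in other settings 2143 stayed on the same side, 478 passed where the main test did not, and 10 turned sign, all in genes with groups that overlap: Adgre1 (0.0233 with voom, and -0.89 to 0.48 with 1 library left out, positive without WTS-R 3), Fasn (-0.15 to 0.57, negative without WTS-R 1 or 3 at -0.01 each and without TS-R 2), Per1 and Txnip (0.0697 and 0.0464 without TS-R 1 and 3), Elovl3 (-1.41 to 0.10, positive without WTS-R 2) and Tagln (-0.31 to 0.43, negative without WTS-R 1 or TS-R 2, at -0.10). The cause was not tested. Of list medians 1219 moved by less than the spread of levels between libraries and 41 by more. Precision is limited for genes near 3 counts, such as Nlrp3 and Foxp3 in WTS-R.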

Other observations

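Other tissues were present in uneven amounts. Fast skeletal muscle genes were at a level of 9.48, 5.66, 1.25 and 6.61 in TS-R 1 to 4, against 1.25, 0.999 and 6.30 in WTS-R 1 to 3 (mean log2(CPM + 0.5)). High values occurred in both groups, and 0 of 17 genes were higher without overlap. The median log2 fold change of this list was 2.36, and 8.25 without WTS-R 3.

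Sympathetic neuron genes, which mark nerve cell bodies of ganglia that can lie beside the aorta, were present in some libraries of each group. Th, tyrosine hydroxylase, was at 43.5, 14.3, 8.47 and 0.122 CPM in TS-R 1 to 4, against 0.128, 0.0629 and 4.25 CPM in WTS-R 1 to 3 (log2 fold change 3.49, SE 1.63, edgeR FDR 0.232). Dbh, which turns dopamine into noradrenaline, was at 55.6, 23.4, 16.9 and 0.244 CPM in TS-R 1 to 4, against 0.0641, 0 and 6.75 CPM in WTS-R 1 to 3. TS-R 1, 2 and 3, like WTS-R 3, thus held several CPM or more of both genes. TS-R 4, like WTS-R 1 and 2, was near or under the 3-count limit. The list had a median of 3.24, or 5.36 without WTS-R 3, with 0 of 19 genes higher or lower without overlap.

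Heart muscle and mesothelial genes were in all 7 libraries. Myl7, of atrial muscle, was at 116, 124, 31.0 and 139.5 CPM in TS-R 1 to 4, against 178, 157 and 266 CPM in WTS-R 1 to 3 (log2 fold change -0.96, SE 0.40, edgeR FDR 0.176), without overlap. Msln, mesothelin, was at 29.2, 21.7, 2.43 and 35.1 CPM in TS-R 1 to 4, against 76.5, 42.1 and 40.1 CPM in WTS-R 1 to 3 (log2 fold change -1.26, SE 0.79, edgeR FDR 0.37), also without overlap, and TS-R 3 was the lowest library for both. The cardiac list had a median of -0.29 and the mesothelium list -0.82. Of 103 genes of other tissues 5 were higher (4.85%) and 9 lower (8.74%) without overlap, near the 8.96% and 8.15% of all genes.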
